A study of Mus musculus with 71 samples.

Results

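The 9 genes described here mark monocytes in mouse blood. They were chosen by symbol, and all 9 are among the 10508 genes of the deposited table of normalized expression. Ly6c2, Ccr2 and F13a1 mark classical monocytes, Nr4a1, Treml4, Ace, Cx3cr1 and Itgax mark patrolling monocytes, and Csf1r is carried by monocytes of both kinds. Whole blood RNA was sequenced from 71 mice in 6 groups. The model is one of systemic sclerosis, in which intradermal HOCl, an oxidant, is injected into the back on 5 days per week for 6 weeks. The study describes its mice as Balb/c AnNRj females, 6 weeks old at purchase.

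The control group (CTRL, n = 11) received PBS. The HOCL group (n = 12) received HOCl and no antibody. In the HOCL + D11 and HOCL + E07 groups (n = 12 each), HOCl mice also received an antibody against galectin-3 at 20 mg/kg under the skin, every 5 days until euthanasia. The HOCL + D06 and HOCL + BPR21 groups (n = 12 each) are HOCl mice with treatments of those names, which the study's text does not use. Their agents and doses are not given in the sources used here. The study's text describes its mice and caging without naming these groups, so its strain, sex, age and cages are assumed for them. It also describes a group given TD139, a galectin-3 inhibitor, which no sample title names. The genotype field reads HOCL for control mice too, and the group was taken from the sample title.

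Classical monocytes leave the bone marrow through CCR2 and enter inflamed tissue, where they can become macrophages. Patrolling monocytes derive from them in mice under control of the transcription factor NR4A1, crawl along the endothelium and depend on CX3CR1 for survival. The growth factor CSF1 acts on both through its receptor CSF1R. In bulk blood, fewer cells of a type and less RNA per cell cannot be told apart.

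Library totals ran from 11932855 to 15948972 counts. The lowest count of any member in any mouse was 11, for Cx3cr1 in BPR21 mouse 6, so every member was detected in all 71 mice. Expression is given as vst values, a log2-like scale made by the authors on which a count of 0 lies at 6.06. This scale compresses differences of genes with few counts. The vst table lacks HOCL mouse 8, which leaves 11 HOCL mice on that scale. Libraries that stood apart, with a median correlation to the other libraries under 0.94, numbered 5: BPR21 mice 11 and 12, D11 mouse 10, D06 mouse 5 and HOCL mouse 7. Red cell RNA differed between groups. The summed share of 16 erythroid genes in a library had a median of 6.98% in CTRL mice (range 3.23 to 9.91%), 11.4% in HOCL (7.70 to 16.9%), 8.18% in D11 (4.97 to 13.9%), 6.47% in E07 (4.57 to 9.88%), 9.22% in D06 (7.32 to 17.3%) and 8.74% in BPR21 (6.04 to 12.0%). None of the 16 was at 0 in all mice.

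The genes lie apart in the genome (GRCm39, GENCODE vM39). Ly6c2 (ENSMUSG00000022584) spans 74980003 to 74988467 on chromosome 15, minus strand. On the same chromosome, Nr4a1 (ENSMUSG00000023034) spans 101151980 to 101172681, plus strand. Both chemokine receptors are on chromosome 9, Ccr2 (ENSMUSG00000049103) at 123901982 to 123913594, plus strand, and Cx3cr1 (ENSMUSG00000052336) at 119877749 to 119898945, minus strand. F13a1 (ENSMUSG00000039109) lies on chromosome 13 at 37051152 to 37234277, minus strand, and Treml4 (ENSMUSG00000051682) on chromosome 17 at 48571323 to 48582388, plus strand. Ace (ENSMUSG00000020681) lies on chromosome 11 at 105858469 to 105880790, Itgax (ENSMUSG00000030789) on chromosome 7 at 127728668 to 127749829, both on the plus strand. Ly6c2 has a close paralog, Ly6c1, at 74915847 to 74920686 on chromosome 15. Reads that fit both genes could have been split between them, so the level of Ly6c2 is uncertain to that extent.

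Because members of 1 cell type moved unequally, the 250 bases before the start site are shown for the member lowest in D06 and BPR21 blood (Cx3cr1), for a patrolling gene that stayed level (Treml4), and for the 2 classical genes that were lower in different groups (Ly6c2 with BPR21, F13a1 with E07). Sequences are RefSeq promoters of the GRCm38.p6 table, placed on GRCm39 by an exact match and written 5′ to 3′ on the gene's strand. Capitals mark GAGGAA or its reverse complement TTCCTC, a core of sites of PU.1, the myeloid transcription factor that monocytes need.
Ly6c2, chr15:74983821-74984070, minus strand: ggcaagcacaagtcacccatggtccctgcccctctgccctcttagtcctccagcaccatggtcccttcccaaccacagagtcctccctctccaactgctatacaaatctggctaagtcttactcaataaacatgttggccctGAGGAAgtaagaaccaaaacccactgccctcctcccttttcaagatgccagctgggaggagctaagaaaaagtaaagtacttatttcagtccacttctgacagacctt
F13a1, chr13:37234221-37234470, minus strand: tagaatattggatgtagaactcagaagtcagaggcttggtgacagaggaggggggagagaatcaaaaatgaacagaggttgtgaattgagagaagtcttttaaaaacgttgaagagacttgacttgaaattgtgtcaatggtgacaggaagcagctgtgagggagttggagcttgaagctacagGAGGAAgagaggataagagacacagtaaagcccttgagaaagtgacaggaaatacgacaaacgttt
Cx3cr1, chr9:119897363-119897612, minus strand: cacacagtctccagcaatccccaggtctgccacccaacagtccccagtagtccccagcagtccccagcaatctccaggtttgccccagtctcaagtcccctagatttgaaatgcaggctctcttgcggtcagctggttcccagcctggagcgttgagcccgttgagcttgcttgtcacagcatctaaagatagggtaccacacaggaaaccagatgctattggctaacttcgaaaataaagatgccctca
Treml4, chr17:48571073-48571322, plus strand: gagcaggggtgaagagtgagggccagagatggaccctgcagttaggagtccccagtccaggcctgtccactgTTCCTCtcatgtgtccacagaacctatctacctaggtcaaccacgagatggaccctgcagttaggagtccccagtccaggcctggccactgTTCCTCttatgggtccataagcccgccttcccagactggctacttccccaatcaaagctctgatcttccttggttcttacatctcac

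Promoters were found for 8 of the 9 genes. The motif stood in 4 of them (1 copy each in Ly6c2 and F13a1, 2 each in Treml4 and Ace), against 23.3% of 32851 mouse promoters of the same length. These letters were not in the windows of Cx3cr1, Ccr2, Nr4a1 and Itgax. RefSeq starts lay away from the 5′ end of the GENCODE gene by 4647 bases for Ly6c2, 1583 for Cx3cr1, 57 for F13a1 and 0 for Treml4, and by 12747 for Nr4a1.

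Per kilobase of exon, classical genes were the more abundant in CTRL blood. Counts scaled to the library total, as CPM per kilobase, were 51.6 ± 16 for Ccr2, 36.1 ± 10.7 for Ly6c2 and 35.8 ± 8.47 for F13a1 (SD, n = 11). Csf1r followed with 14.8 ± 5.31, and Treml4 with 12.6 ± 5.58. The remaining patrolling genes were at 7.74 ± 3.79 for Ace, 6.35 ± 2.54 for Cx3cr1, 3.44 ± 1.69 for Itgax and 2.00 ± 0.705 for Nr4a1. Only the steps from F13a1 to Csf1r and from Cx3cr1 to Itgax were larger than the SD of either gene; the other neighbours in this order lay within the larger of their SDs.

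Over all 6 groups, a limma F test on vst values found differences for 6 of the 9 genes, at a false discovery rate (FDR, Benjamini-Hochberg over all genes) of at most 0.05. Of all 10508 genes, 18.3% passed. Cx3cr1 had the smallest FDR (1.27e-05), followed by Ccr2 (0.000173), Ly6c2 (0.000199), F13a1 (0.000612), Nr4a1 (0.00246) and Csf1r (0.0106). The patrolling genes Ace, Itgax and Treml4 did not pass (FDR 0.340, 0.761 and 0.985). Their group means spanned 0.39, 0.21 and 0.08 on the vst scale, against a within-group SD of 0.47, 0.36 and 0.30.

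**Figure D1:**
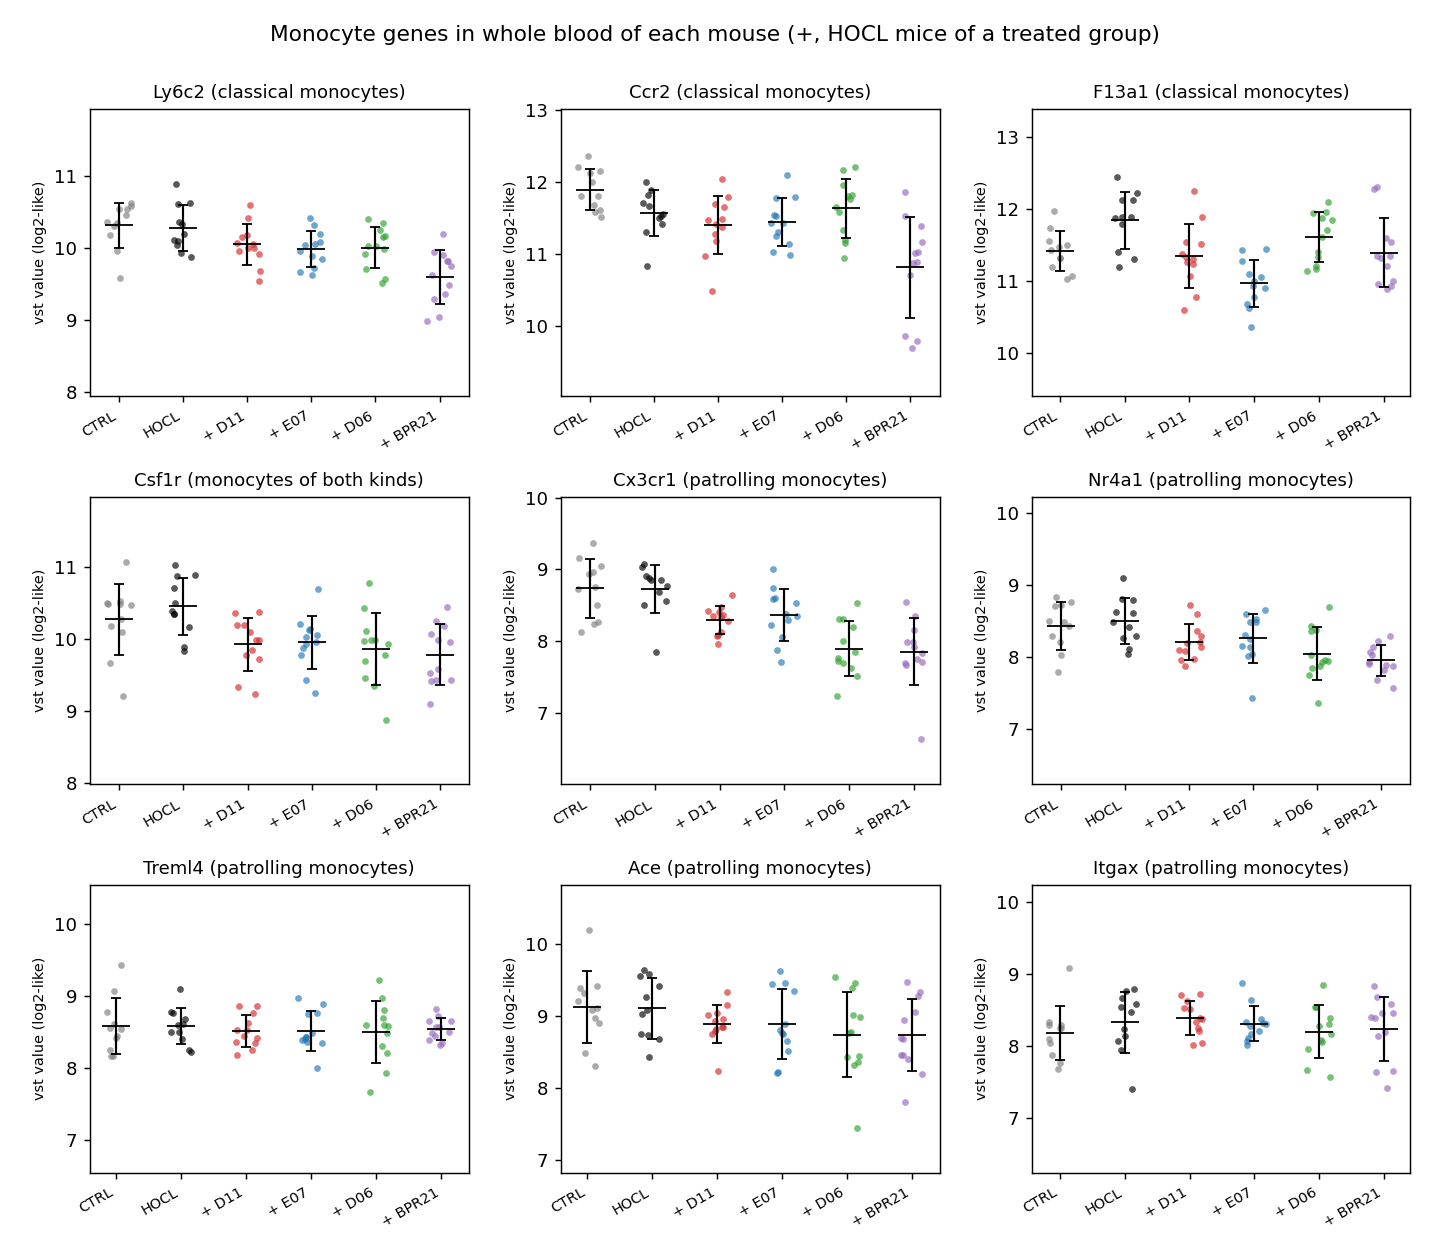
Each point is the vst value (log2-like) of 1 gene in 1 mouse, by group; horizontal lines are group means and bars the SD, and every panel spans 4 units. Ly6c2 and Ccr2 sit lowest in the BPR21 group, F13a1 in the E07 group, and Cx3cr1 in the D06 and BPR21 groups, while Treml4 is level.

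Ly6c2 encodes a surface antigen by which classical monocytes are sorted. Its vst values ran from 9.58 to 10.63 in CTRL mice (median 10.37), from 9.87 to 10.89 in HOCL (median 10.20) and from 8.98 to 10.19 in BPR21 (median 9.69). In D11, E07 and D06 mice the medians were 10.03, 10.00 and 10.03, with ranges of 9.54 to 10.59, 9.62 to 10.42 and 9.51 to 10.40. All 12 BPR21 mice lay below the HOCL median, and 9 of them below every HOCL mouse, although the ranges overlapped. Ly6c2 fell in BPR21 blood by 0.68 ± 0.14 (SE) against HOCL (0.626-fold, FDR 0.0145) and by 0.72 ± 0.14 against CTRL (FDR 0.0147).

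Ccr2 encodes the receptor of CCL2. It had its highest values in CTRL mice, 11.52 to 12.36 (median 11.80), and ran from 10.84 to 12.00 in HOCL mice (median 11.55). BPR21 mice had the widest spread, 9.69 to 11.86 (median 10.95). BPR21 mice 9, 10 and 12 lay at 9.79, 9.69 and 9.86, below every other mouse of the series. Medians in D11, E07 and D06 mice were 11.45, 11.43 and 11.71. Against CTRL, Ccr2 fell in BPR21 blood by 1.08 ± 0.21 (0.473-fold, FDR 0.0149), with 10 of 12 mice below every CTRL mouse. Against HOCL the difference was -0.75 ± 0.21 and missed the threshold (FDR 0.0828), with 11 of 12 mice below the HOCL median. Against HOCL with all 6 groups in one limma fit, it passed (FDR 0.00938).

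F13a1, the A subunit of coagulation factor XIII, is made by monocytes and megakaryocytes. HOCL mice had the highest values, 11.20 to 12.44 (median 11.89), against 11.03 to 11.97 in CTRL mice (median 11.43). E07 mice had the lowest, 10.36 to 11.45 (median 10.97). D11, D06 and BPR21 mice had medians of 11.32, 11.66 and 11.34. Against HOCL, F13a1 fell in E07 blood by 0.88 ± 0.14 (0.544-fold, FDR 0.000171), with 12 of 12 mice below the HOCL median and 9 below every HOCL mouse. On the HOCL side, its difference from CTRL was 0.43 ± 0.14 (FDR 0.0634). This passed in DESeq2 on counts (FDR 0.0457) and without the libraries that stood apart (FDR 0.0371). In BPR21 blood, mice 11 and 12, which stood apart, held the 2 highest F13a1 values of their group, 12.28 and 12.30. Without the libraries that stood apart, F13a1 was lower in BPR21 than in HOCL blood (-0.67, FDR 0.0216), against -0.45 with them (FDR 0.226). Platelet genes moved beside F13a1 in E07 blood: 7 of 8 fell against HOCL, beside 7.89% of all genes. Gp9 (-0.53), Treml1 (-0.52), Ppbp (-0.53) and Pf4 (-0.48) were among these platelet genes. Of the 8, 5 were higher in HOCL than in CTRL blood, beside 4.96% of all genes. In D06 blood 6 of them were higher than in CTRL, beside 7.88% of all genes. F13a1 differed there by 0.19 and did not pass (FDR 0.382). The part of platelet genes in the F13a1 result was not tested.

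The ratio of F13a1 to Ccr2 within a library does not depend on scaling. Its log2 mean was -0.50 ± 0.34 in CTRL (SD, n = 11), 0.26 ± 0.42 in HOCL and -0.50 ± 0.36 in E07 blood (n = 12 each). D11 and D06 mice had -0.06 ± 0.62 and -0.02 ± 0.53, and BPR21 mice 0.63 ± 0.95. Counts of F13a1 thus exceeded those of Ccr2 on average in HOCL and BPR21 blood, and were fewer in CTRL and E07 blood.

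Csf1r, the receptor of CSF1 and IL-34, had vst values of 9.22 to 11.08 in CTRL mice (median 10.48) and 9.84 to 11.04 in HOCL mice (median 10.39). All 4 treated groups had lower medians: 9.99 with D11 (9.24 to 10.38), 10.00 with E07 (9.25 to 10.70), 9.95 with D06 (8.88 to 10.79) and 9.77 with BPR21 (9.10 to 10.45). The ranges overlapped in every comparison. Against HOCL, Csf1r fell in E07 blood by 0.50 ± 0.15 (FDR 0.0204) and in BPR21 blood by 0.67 ± 0.16 (FDR 0.0434). Its differences in D11 and D06 blood were of like size, -0.53 ± 0.15 (FDR 0.121) and -0.59 ± 0.17 (FDR 0.142), and did not pass in limma, while DESeq2 on counts called both (FDR 0.0143 and 0.0234). All 12 D11 mice lay below the HOCL median. The E07 call was lost with all 6 groups in one fit (FDR 0.0531), and with CPM of the total count (-0.08, FDR 0.698). With CPM the BPR21 difference kept its size (-0.69) and did not pass (FDR 0.288). The BPR21 call was also lost with mouse number as a replicate block.

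Cx3cr1, the receptor of fractalkine, was the patrolling gene that differed most. Its vst values ran from 8.13 to 9.37 in CTRL mice (median 8.76) and from 7.86 to 9.08 in HOCL mice (median 8.85). D06 mice had 7.24 to 8.54 (median 7.81) and BPR21 mice 6.65 to 8.55 (median 7.87). D11 and E07 mice lay between, at 7.96 to 8.65 (median 8.34) and 7.71 to 9.01 (median 8.37). Every mouse of the D06, BPR21 and D11 groups was below the medians of both CTRL and HOCL mice. Against HOCL, Cx3cr1 fell in D06 blood by 0.83 ± 0.14 (FDR 0.0215) and in BPR21 blood by 0.87 ± 0.16 (FDR 0.00808). Against CTRL the falls were 0.84 ± 0.15 (FDR 0.00124) and 0.88 ± 0.17 (FDR 0.0149). With mouse number as a replicate block, the D06 call against HOCL was lost.

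The differences of Cx3cr1 were larger in edgeR on counts. Vst compresses low counts, and the counts include HOCL mouse 8, which had the highest CPM of Cx3cr1 in its group (41.1). The part of each was not tested. Comparisons with CTRL do not include HOCL mouse 8. There edgeR gave -1.30 for D06 and -1.33 for BPR21, beside -0.84 and -0.88 on the vst scale. The log2 fold change against HOCL was -1.35 for D06 (FDR 0.00750) and -1.38 for BPR21 (FDR 0.0132). In D11 blood it was -0.77 (FDR 0.0398) and in E07 blood -0.58 (FDR 0.0492), so both passed in edgeR, and neither did without HOCL mouse 8 (FDR 0.0721 and 0.0971), while limma on vst values gave -0.43 ± 0.11 (FDR 0.103) and -0.36 ± 0.14 (FDR 0.0733). The CPM of Cx3cr1 were 29.6 ± 11.8 in CTRL (SD, n = 11), 22.7 ± 9.79 in HOCL, 13.9 ± 3.50 in D11, 19.98 ± 6.40 in E07, 8.27 ± 4.11 in D06 and 9.47 ± 5.85 in BPR21 blood (n = 12 each).

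NK cells also carry CX3CR1 in mice. In D06 blood, where Cx3cr1 fell against HOCL, 0 of 9 NK cell genes passed, beside 0.133% of all genes. The list's median difference was 0.21, against -0.01 over all genes. In BPR21 blood 0 passed against HOCL (median -0.19), beside 0.638% of all genes. Against CTRL 2 fell, Gzma by 0.56 and Ncr1 by 0.62, beside 0.504% of all genes. Summed NK cell genes made up a median of 0.0277% of counts in HOCL, 0.0345% in D06 and 0.0220% in BPR21 blood (ranges 0.0184 to 0.0510%, 0.0164 to 0.0581% and 0.0128 to 0.0440%), and none was at 0 in all mice. The part of NK cells in the Cx3cr1 result was not tested.

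Nr4a1 ran from 7.79 to 8.82 in CTRL (median 8.49) and from 8.04 to 9.09 in HOCL mice (median 8.49). BPR21 mice had the lowest median, 7.91, with values from 7.57 to 8.29, though D06 mouse 9 and E07 mouse 7 lay lower, at 7.36 and 7.43. D11, E07 and D06 mice had medians of 8.16, 8.28 and 7.94. All 12 BPR21 mice lay below the HOCL median and 8 below every HOCL mouse. Nr4a1 fell in BPR21 blood by 0.55 ± 0.11 against HOCL (0.681-fold, FDR 0.0139) and by 0.48 ± 0.11 against CTRL (FDR 0.0429). The call against CTRL was lost without the libraries that stood apart (FDR 0.0609). In D06 blood its difference from HOCL was -0.46 ± 0.14 (FDR 0.144), with 11 of 12 mice below the HOCL median and 8 below every HOCL mouse. NR4A1 is also an immediate early gene, induced within minutes when cells are stimulated. Of 9 other immediate early genes, 0 passed between BPR21 and HOCL blood (median -0.04). Only 0.638% of all genes passed there, a share at which 0 of 9 says little. In E07 blood 2 of these 9 fell against HOCL, Fos (-1.38) and Dusp1 (-1.09), beside 7.89% of all genes. Nr4a1 differed there by -0.25 ± 0.13 (FDR 0.205).

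Treml4, a receptor of the TREM family found on patrolling monocytes, was level. Group medians were 8.54 in CTRL, 8.60 in HOCL, 8.48 in D11, 8.43 in E07, 8.59 in D06 and 8.53 in BPR21 mice. Every difference from HOCL was between -0.08 and -0.04, with an SE of 0.09 to 0.14. The groups overlapped throughout. Ace, the angiotensin-converting enzyme, had medians of 9.11, 9.08, 8.89, 8.78, 8.76 and 8.68 in the same order. Its differences from HOCL reached -0.36 ± 0.20 in D06 (FDR 0.439) and -0.37 ± 0.18 in BPR21 blood (FDR 0.350). Itgax, the CD11c integrin chain, which dendritic cells also carry, had medians of 8.25, 8.47, 8.38, 8.29, 8.22 and 8.39. It did not pass in any comparison with HOCL or CTRL. Of 8 dendritic cell genes 1 passed, Cd209a, which in BPR21 blood fell by 0.65 against CTRL, beside 0.504% of all genes.

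Within a library, the log2 ratio of Cx3cr1 to Treml4 was 0.22 ± 0.50 in CTRL (SD, n = 11) and 0.36 ± 0.74 in HOCL blood (n = 12). It was -0.32 ± 0.33 with D11, -0.23 ± 0.45 with E07, -0.97 ± 0.72 with D06 and -1.20 ± 1.08 with BPR21. All 12 D06 mice had fewer Cx3cr1 than Treml4 counts. The mean log2 count of the 3 classical genes less that of the 5 patrolling genes was 3.09 ± 0.41 in CTRL and 3.05 ± 0.44 in HOCL mice, and stood highest in D06 mice, at 3.46 ± 0.45. D11, E07 and BPR21 mice had 2.99 ± 0.22, 2.84 ± 0.48 and 2.97 ± 0.59. These ratios are given as descriptions without a test.

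**Figure D2:**
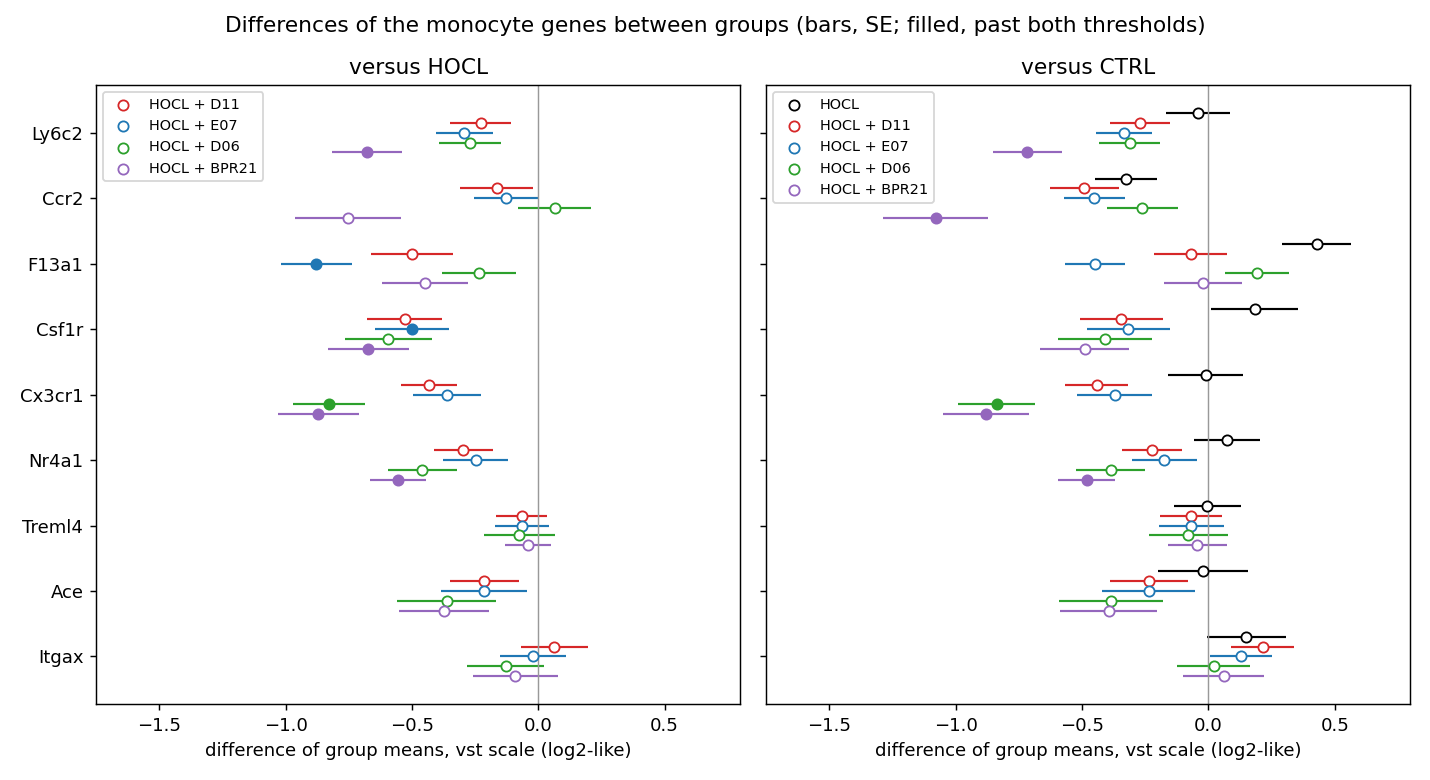
Differences of group means on the vst scale (log2-like) for each gene, against HOCL mice on the left and CTRL mice on the right; points are limma estimates, bars the SE, and filled points passed an FDR of 0.05 and a fold change of 1.3. Filled points all lie below 0 and number 7 on the left and 5 on the right, none of them for Treml4, Ace or Itgax.

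The comparisons can be read across the genes. The 4 comparisons with HOCL share the same HOCL mice, and those with CTRL the same CTRL mice, so their counts are not independent. A call required a fold change of 1.3 or more beside an FDR no higher than 0.05. Between HOCL and CTRL blood, 0 of the 9 members passed in limma, and 0 in edgeR on counts, while 4.96% of all genes did. At an unadjusted p under 0.05, 2 of 9 passed in limma, beside 17.9% of all genes. DESeq2 called 1, F13a1.

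Between D11 and HOCL blood 0 of 9 passed in limma (0.0571% of all genes). At an unadjusted p under 0.05, 4 did in limma, all with lower means, beside 14.1% of all genes. In edgeR 1 passed, Cx3cr1, but not without the mouse absent from the vst table, and DESeq2 called Cx3cr1 and Csf1r. Between E07 and HOCL 2 passed, F13a1 and Csf1r, both lower (7.89% of all genes). EdgeR and DESeq2 called these 2 and Cx3cr1, which edgeR did not call without the mouse absent from the vst table. Between D06 and HOCL 1 passed, Cx3cr1 (0.133%). EdgeR called the same gene, and DESeq2 called Csf1r beside it. Between BPR21 and HOCL 4 passed, all lower: Ly6c2, Csf1r, Cx3cr1 and Nr4a1 (0.638%). EdgeR called the same 4, and DESeq2 called them and Ccr2. All 9 members had lower means in BPR21 than in HOCL blood on the vst scale (median -0.55, against -0.000958 over all genes), and 8 of 9 with CPM of the total count, where Treml4 was at 0.09.

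Against CTRL, 0 of 9 members passed in D11 blood (0.0761% of all genes) and 0 in E07 blood (0.00952%). At an unadjusted p under 0.05, 4 passed with D11 and 4 with E07 in limma, beside 16.1% and 7.6% of all genes. EdgeR called 0 in either. DESeq2 called 1 with D11, Ccr2, and 0 with E07. In D06 blood 1 passed, Cx3cr1 (7.88%). In BPR21 blood 4 passed, all lower: Ly6c2, Ccr2, Cx3cr1 and Nr4a1 (0.504%).

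Treated groups were compared with each other in 6 pairs, which answers whether these groups differed. Groups had separate cages, so treatment and cage cannot be told apart in these pairs. Members passed in 2 pairs, both with E07. F13a1 was lower in E07 than in D06 blood, with a difference of -0.64 ± 0.13 (FDR 0.000644), and Cx3cr1 was higher by 0.47 ± 0.14 (FDR 0.0209; 9.76% of all genes passed). With CPM of the total count the F13a1 difference was -0.084 and did not pass (FDR 0.560), and that of Cx3cr1 was 1.25 (FDR 0.000102). Against BPR21, E07 blood had more Ly6c2 (0.38 ± 0.12, FDR 0.0434), Ccr2 (0.63 ± 0.20, FDR 0.0454) and Cx3cr1 (0.51 ± 0.16, FDR 0.0391), with 7.26% of all genes passing. All 3 were lost without the libraries that stood apart (FDR 0.127, 0.0792 and 0.0978), and edgeR on counts did not call Ccr2 (FDR 0.0760) or Cx3cr1 (FDR 0.0545). EdgeR did call Ly6c2 (FDR 0.0442) and Nr4a1 (FDR 0.0386). DESeq2 called 5 members, Ly6c2, Ccr2, Cx3cr1, Nr4a1 and F13a1. No member passed between D11 and E07 (4.57% of all genes) or between D06 and BPR21 (0.0571%). Between D11 and D06, and between D11 and BPR21, 0 members and 0% of all genes passed. Cx3cr1 differed there by 0.40 ± 0.12 (FDR 0.718) and 0.44 ± 0.14 (FDR 0.541). At an unadjusted p under 0.05, limma had 1 member between D11 and E07 (20.9% of all genes), 1 between D11 and D06 (6.23%), 4 between D11 and BPR21 (5.91%) and 2 between D06 and BPR21 (8.94%), and edgeR and DESeq2 called 0 members in these 4 pairs.

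Scaling between libraries sets the sign of several smaller differences. With CPM of the total count, the median of all genes moved by -0.46 between HOCL and CTRL blood and by 0.49 between E07 and HOCL blood, against -0.02 and 0.02 on the vst scale. On the vst scale all 9 members were lower in E07 than in HOCL blood, with CPM only F13a1, Csf1r and Cx3cr1 were. The log2 ratio to Ptprc, the CD45 gene of all leukocytes, gave 8 of 9 lower, with Itgax at 0.02. Ptprc itself passed in none of the 9 comparisons with HOCL or CTRL mice, although its means differed. Between D06 and CTRL blood it differed by -0.24 on the vst scale, short of the fold limit. Its CPM were 805 ± 203 in CTRL (SD, n = 11), 536 ± 132 in HOCL and 455 ± 104 in D06 blood (n = 12 each). A lower Ptprc raises a ratio to it. For F13a1 the E07 difference was -0.88 on the vst scale, -0.39 with CPM and -0.93 as a ratio to Ptprc. The fall of Cx3cr1 in BPR21 blood was -0.87, -1.297 and -1.54 against HOCL, and in D06 blood -0.83, -1.36 and -1.25. With CPM the 4 BPR21 calls against HOCL did not pass, at FDR 0.0688 to 0.288, although none of the differences was smaller than on the vst scale: -0.72 for Ly6c2, -0.69 for Csf1r and -0.75 for Nr4a1, beside that of Cx3cr1.

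**Figure D3:**
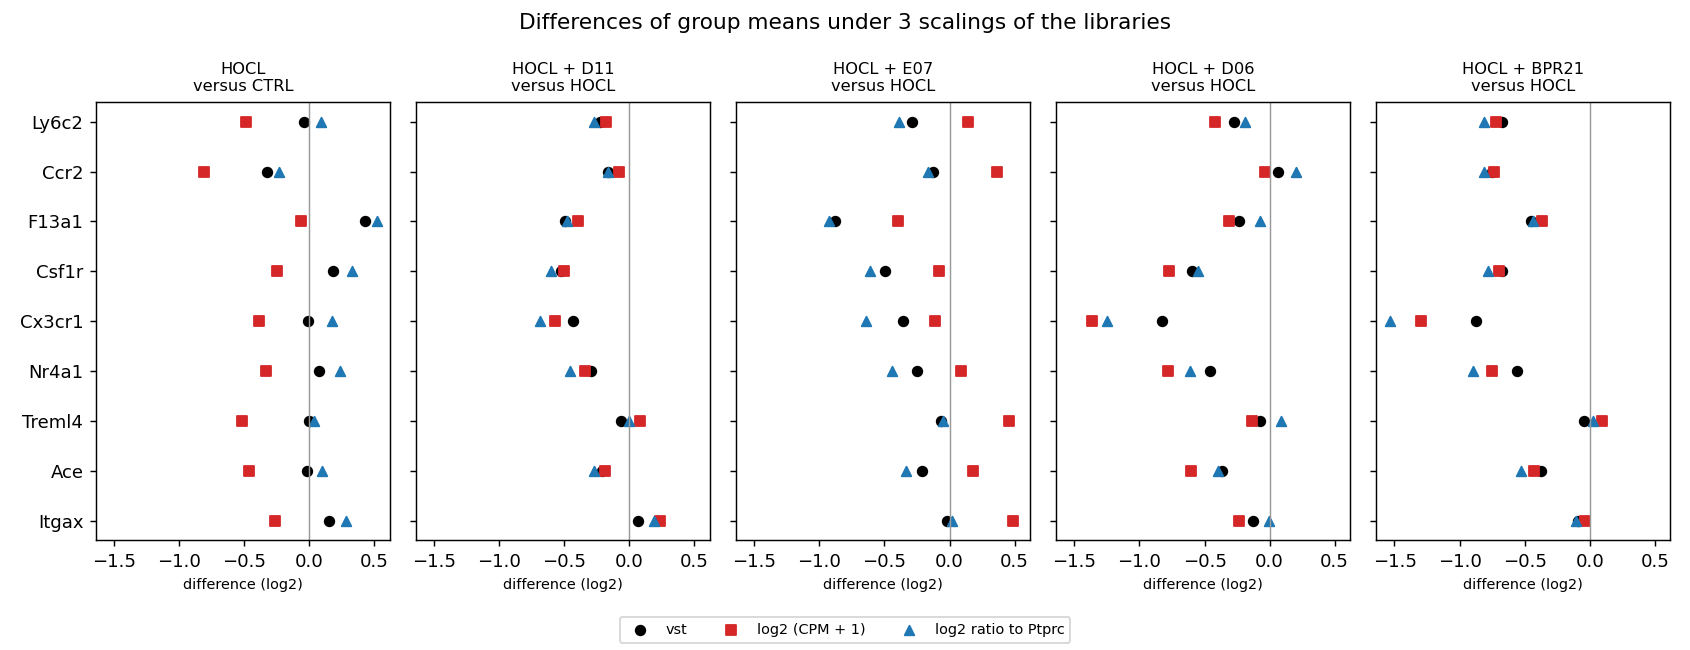
Differences of group means (log2) for each gene in 5 comparisons, on the vst scale (circles), as log2 of CPM plus 1 (squares) and as the log2 ratio to Ptprc (triangles). Squares lie to the left between HOCL and CTRL and to the right between E07 and HOCL, while in BPR21 blood the scalings differ little except for Cx3cr1 and Nr4a1.

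Of the wider monocyte lists, 8 of 14 other classical, 5 of 16 other patrolling and 10 of 16 shared monocyte and macrophage genes passed the F test over the 6 groups, beside 18.3% of all genes. Of 14 other classical genes in the vst table, 1 fell in BPR21 blood against HOCL, Plac8 (-0.61), and 2 against CTRL, Ly6c1 (-0.62) and Ms4a6c (-0.77). Of all genes, 0.638% and 0.504% passed in these comparisons. Gda was the 1 of the 14 called higher in HOCL than in CTRL blood (1.21), beside 4.96% of all genes. In D06 blood it was higher than in CTRL by 1.32, beside 7.88% of all genes. With E07 it differed from HOCL by -1.11, beside 7.89% of all genes. The median of the erythroid genes had the same sign in these comparisons. Their part in the Gda result was not tested. Of 16 other patrolling genes, 0 passed in BPR21 blood in either comparison, beside the same shares of all genes. With E07 2 of the 16 fell against HOCL, Cd36 (-0.93) and Cd9 (-0.45), beside 7.89% of all genes. In HOCL blood 1 of the 16 was higher than in CTRL, Cd36 (0.85), beside 4.96% of all genes. In D06 blood 2 of the 16 were higher than in CTRL, Cd36 (1.24) and Cd9 (0.59), beside 7.88% of all genes. Platelets and red cell precursors carry these 2 too. Of 16 genes shared by monocytes and macrophages, 5 fell in BPR21 blood against HOCL, where 0.638% of all genes passed, among them Fcgr1, a high-affinity Fc receptor (-0.70), and Mpeg1, a pore-forming protein of phagocytes (-0.68). Against CTRL 5 of them fell, among them Aif1 (-0.85), beside 0.504% of all genes. With E07 1 of the 16 fell against HOCL, the endotoxin co-receptor Cd14 (-0.59), beside 7.89% of all genes. In D06 blood 1 of the 16 was higher and 1 lower than in CTRL, beside 7.88% of all genes. The list's median against HOCL was -0.41 in BPR21, -0.27 in D11, -0.20 in E07 and -0.18 in D06 blood, beside -0.000958, -0.0023, 0.02 and -0.0085 over all genes.

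Of 15 lineage factors and CSF1 pathway genes, 3 fell with E07 against HOCL, beside 7.89% of all genes. They were Cebpa (-0.47), Cebpb (-0.48) and Csf2rb, the common beta chain of cytokine receptors (-0.47). None passed with BPR21 against HOCL or CTRL, beside 0.638% and 0.504% of all genes. Csf1, the ligand of CSF1R, was higher in D06 than in CTRL blood by 0.60, and differed by 0.74 in BPR21 blood without passing. Ligands of CCR2 and CX3CR1 were near absent from blood RNA: Ccl2, Ccl7, Ccl8, Ccl12 and Cx3cl1 had a median of 0 counts and at most 12 in any mouse, and 0 of the 5 are in the vst table.

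Genes of other blood cells were described beside the monocyte genes. Of all genes, 4.96% passed between HOCL and CTRL blood. Against HOCL, 7.89% passed with E07, 0.0571% with D11, 0.133% with D06 and 0.638% with BPR21. Of 11 neutrophil genes, 3 rose in HOCL against CTRL blood (Ngp by 1.304, Camp by 0.95 and Ltf by 0.92) and 2 fell with E07 against HOCL (Mmp8 at -0.84 and Ltf at -0.72). With D11, D06 and BPR21 0 passed against HOCL. The list's median against HOCL was -0.41 in D11, -0.45 in E07, -0.30 in D06 and -0.37 in BPR21 blood, below 0 as for the monocyte genes. Summed neutrophil genes made up 0.213 to 2.08% of counts in BPR21 mice (median 0.392%), against 0.327 to 0.742% in HOCL mice (median 0.474%). With E07, 6 of 8 B cell genes were higher than in HOCL blood, among them Ms4a1 by 0.59, Cd79a by 0.54 and Blk by 0.48. Ccr3, the eotaxin receptor of eosinophils, was higher than in HOCL blood with D11 (0.90), E07 (0.67) and D06 (1.17) and not with BPR21 (-0.04). In BPR21 blood 0 of the 8 B cell genes passed against HOCL, and all 8 had lower means (median -0.24). Il7r, of T cells, was higher with BPR21 by 0.55. Erythroid genes rose in HOCL against CTRL blood (10 of 16, Slc4a1 by 1.80) and fell with E07 (11 of 16, with Slc4a1 at -2.03). The part of any of these in the monocyte results was not tested.

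Mouse-to-mouse likeness within groups was described by Pearson's r over 70 mice, after the mean of each group was subtracted. The points share libraries and their scaling, and no p is given. Csf1r went with the patrolling genes Itgax (r = 0.70), Cx3cr1 (0.63), Ace (0.51) and Treml4 (0.46). Its r was 0.23 with the patrolling gene Nr4a1, and 0.39, 0.32 and 0.25 with the classical genes F13a1, Ccr2 and Ly6c2. Ace went with Itgax (0.61) and Treml4 (0.55). Ly6c2 went with Ccr2 (0.48), but F13a1 with neither of them (r = -0.13 with Ly6c2 and 0.12 with Ccr2). F13a1 had its highest r with Csf1r (0.39) and Itgax (0.38). Nr4a1 had no r above 0.26 with any other member. The non-member genes most like Ly6c2 were its paralog Ly6c1 (0.65), Plac8 (0.63), Ly6e (0.60), Ifi27l2a (0.59) and Ms4a4c (0.59). Those most like Treml4 were Cyp4f16 (0.60), Krt80 (0.58), Clec4a1 (0.57), Adssl1 (0.57) and Myo1f (0.57).

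**Figure D4:**
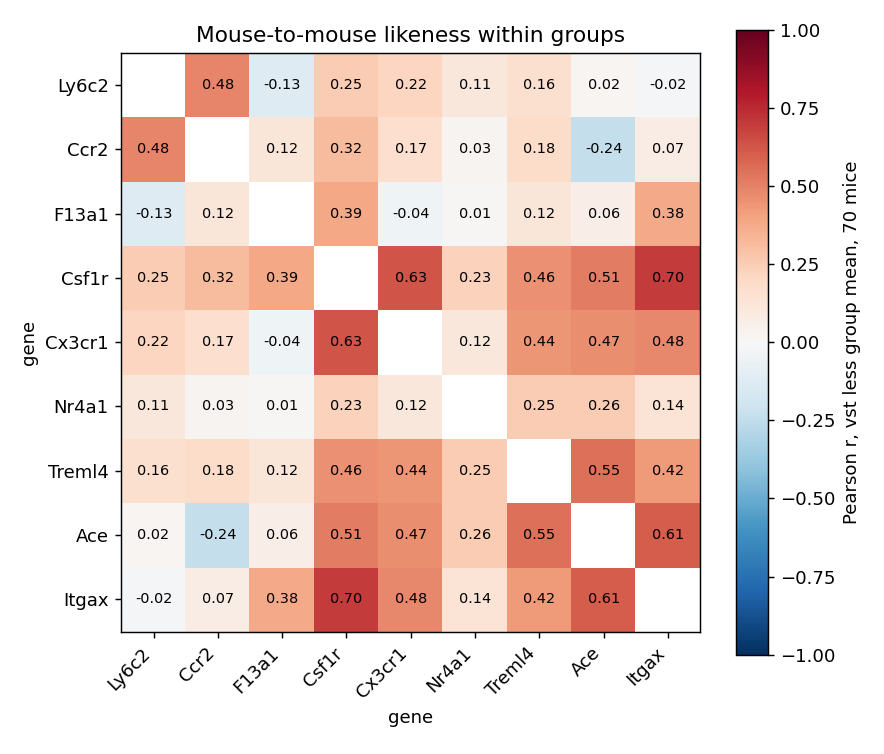
Pearson's r between each pair of the 9 genes over 70 mice, from vst values less the mean of the mouse's group; red is positive, blue negative. The block of Csf1r, Cx3cr1, Treml4, Ace and Itgax has values of 0.42 to 0.70, Ly6c2 and Ccr2 pair at 0.48, and F13a1 and Nr4a1 stand apart from their subset's genes.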

How the data were processed

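RNA from whole blood was poly A selected, depleted of globin transcripts and sequenced with strand-specific libraries. The authors trimmed reads with cutadapt, aligned them to mm39 with STAR and counted reads per gene with featureCounts. They deposited raw counts (55416 genes, 71 mice) and variance-stabilized, log2-like values (vst, made with DESeq2, 10508 genes, 70 mice). Of the vst genes, 10501 were paired with counts by symbol. Groups came from the sample titles. The study kept its groups in separate cages, so cage and group cannot be told apart.

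Pairs of groups were compared with limma 3.58.1 (R 4.3.3) on the deposited vst values, with Benjamini-Hochberg adjustment over all 10508 genes, calling genes with a fold change of 1.3 or more and an FDR no higher than 0.05; an F test covered the 6 groups. Alternatives were edgeR 4.0.16 (quasi-likelihood, TMM, at least 10 counts in at least 11 mice, or no filter, or without HOCL mouse 8), DESeq2 1.42.0, limma on log2(CPM of the total count + 1), 6 groups in one fit, mouse number as a block, the FDR alone, the F test without the D06 and BPR21 groups and, chosen after the data were seen, a fit without the 5 libraries that stood apart. Log2 ratios of counts within a library used a pseudocount of 0.5. The fits were tested on simulated data.

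Members and gene lists were chosen with earlier results of these data known. All 9 members are named. From the other lists (monocyte, blood cell, immediate early and ligand genes), genes that passed in a comparison with HOCL or CTRL are named, at most 4 per list by smallest FDR, with the ligands, Ptprc and the 5 genes most correlated with Ly6c2 and with Treml4.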

Additional observations from a re-analysis of the deposited data

How the results depend on the processing

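Of 17 calls of a member in a comparison, none turned direction in any alternative. DESeq2 and the FDR alone kept 17, edgeR without a filter 16, all 6 groups in one fit 16, edgeR 15, mouse number as a replicate block 14, the fit without the libraries that stood apart 13 and CPM of the total count 10. Same-numbered mice were weakly alike: their mean correlation lay between 0.00041 and 0.15 over the comparisons, and a single pair reached -0.42. The mean over other pairs of mice was lower, as between E07 and CTRL (-0.0097 against 0.15). The exception was D06 and BPR21 (0.0014 against 0.00041). Group means had been subtracted, which ties both means together. A higher mean for same-numbered mice then brings a lower one for other pairs, so this contrast cannot decide pairing. Whether mouse numbers pair the samples is not settled. With the replicate block, 0 members were called between D06 and HOCL and 1 between D11 and CTRL, and the calls of Cx3cr1 (D06 against HOCL, FDR 0.113; E07 against BPR21, FDR 0.0602) and Csf1r (BPR21 against HOCL, FDR 0.159) were lost in limma. The cause was not tested.

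Counts of members called also moved elsewhere. With CPM they were 3 between HOCL and CTRL, 1 between E07 and HOCL, 0 between BPR21 and HOCL, 1 between D11 and CTRL, 8 between D06 and CTRL and 15 over pairs of treated groups, where the scaling itself shifts all genes. In DESeq2 they were 1 between HOCL and CTRL, 2 between D11 and HOCL, 2 between D06 and HOCL and 1 between D11 and CTRL. EdgeR gave 1 between D11 and HOCL with and without the filter, and 3 between D06 and CTRL without it. All 6 groups in one fit gave 1 between E07 and HOCL, 2 between D06 and HOCL and 2 between D06 and CTRL. Without the libraries that stood apart, there were 1 between HOCL and CTRL, 2 between D06 and HOCL and 2 over pairs of treated groups. Over all genes, calls between HOCL and CTRL ranged from 85 (block) to 5458 (CPM) around 521, between E07 and HOCL from 681 to 6782 around 829, between D06 and HOCL from 0 to 202 around 14, and between BPR21 and HOCL from 5 to 275 around 67. For D11 and HOCL they ranged from 0 to 170 around 6, for D11 and CTRL from 7 to 245 around 8, for E07 and CTRL from 0 to 24 around 1, for D06 and CTRL from 790 to 7039 around 828, and for BPR21 and CTRL from 28 to 677 around 53. Treated pairs gave 1416 to 17265 around 2275, and the F test 1370 to 8555 around 1918.

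Differences that changed sign were all uncalled on the vst scale. With CPM, HOCL less CTRL was -0.061 for F13a1, -0.25 for Csf1r, -0.33 for Nr4a1 and -0.26 for Itgax. E07 less HOCL was 0.14 for Ly6c2, 0.36 for Ccr2, 0.090 for Nr4a1, 0.45 for Treml4, 0.18 for Ace and 0.49 for Itgax. Treml4 was at 0.078 with D11 and 0.094 with BPR21 against HOCL, and Ccr2 at -0.032 with D06. Against CTRL, Itgax was at -0.031 with D11, -0.50 with D06 and -0.30 with BPR21, and F13a1 at -0.37 with D06. Between HOCL and CTRL, Cx3cr1 turned to 0.038 (block), 0.012 (without the libraries that stood apart), 0.035 (edgeR), 0.033 (edgeR without a filter) and 0.062 (DESeq2). Without the libraries that stood apart, Treml4 was at 0.0050 and Ace at 0.046 there, Itgax at -0.059 for D11 less HOCL and at -0.037 for D06 less CTRL. For D06 less CTRL, Itgax was at -0.0091 (block), -0.011 (edgeR) and -0.031 (edgeR without a filter). Treml4 was at 0.0076 (edgeR) and 0.0020 (no filter) for E07 less HOCL and 0.0058 (DESeq2) for D06 less HOCL. F13a1 was at 0.021 (DESeq2) for BPR21 less CTRL.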
